A study of Mus musculus with 9 samples.

Results

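The collagen family was examined in 3T3 fibroblasts, an immortalised mouse embryonic line, across 3 groups of 3 arrays each. Its members were taken as every gene whose symbol has the form Col, number, a, number and that is named alone by a probe set, which gave 44 chains out of 19938 genes named alone. Where a symbol had several probe sets, as *Col6a5* and *Col6a6* did, the brightest over the 9 arrays was used, so that 44 of 46 collagen probe sets entered. By the way their chains assemble, 11 were fibrillar, 9 network-forming, 9 FACIT (fibril-associated collagens with interrupted triple helices) and 15 of other kinds. The first group held wild-type cells with no stimulus, the second wild-type cells given tumour necrosis factor (TNF-α) at 5 ng/ml for 1 h, and the third *Trap-80* knock-down cells given the same TNF-α. Trap-80, now called Med17, is a subunit of Mediator, the complex that links transcription factors to RNA polymerase II. In the study's methods the knock-down came from a retroviral short hairpin RNA with puromycin selection, the wild-type cells carried an irrelevant hairpin, and knock-down lines were clonal. The study chose a single clone for each hairpin for further work, and clone and knock-down therefore cannot be told apart. Unstimulated knock-down cells were not analysed here, and a resting difference of the knock-down cells therefore cannot be told apart from a changed reaction to TNF-α.

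Collagens are the main structural proteins of the extracellular matrix. Every collagen molecule is a triple helix of α-chains, each encoded by its own gene, and many types need chains of different genes in fixed proportion. Fibrillar collagens such as types I, III and V form the tensile fibres that fibroblasts lay down. Network-forming collagens make sheets, chief among them type IV, the scaffold of basement membranes. FACIT chains decorate fibres, and the remaining kinds include the beaded filaments of type VI, the anchoring fibrils of type VII, several transmembrane chains, and types XV and XVIII, which carry heparan sulphate or chondroitin sulphate at basement membranes. Before secretion, chains are hydroxylated, glycosylated and folded in the endoplasmic reticulum, and after it their ends are cleaved and the molecules cross-linked.

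All values are log2 signals after robust multi-array averaging (RMA), so a difference of 1 is a doubling. Differences were tested with limma in 1 model of the 3 groups over 23410 annotated probe sets, with Benjamini-Hochberg adjustment over all of them and a threshold of 0.05. *Med17*, the targeted gene, read 8.10, 8.09 and 7.89 in the unstimulated arrays, 7.98, 7.93 and 7.77 in the wild-type TNF-α arrays and 6.35, 6.22 and 6.17 in the knock-down arrays. Its array signal in the knock-down arrays was 32.0% of that in wild-type cells with TNF-α (log2 difference −1.64, limma adjusted p = 4.8e-05), in the direction of the label. By quantitative PCR the paper reports a larger reduction of this mRNA, and by western blotting no detectable protein. The arrays were alike, with medians of 4.47 to 4.59 and correlations of 0.985 to 0.992 within groups. Among 8 fibroblast markers *Vim* and *Fn1* had group means of 11.27 to 12.74, *Pdgfrb* of 9.45 to 9.58, and *Lum* stayed between 2.05 and 2.33. The knock-down cells differed in fibroblast markers too, with *Pdgfra* (log2 difference −1.89, limma adjusted p = 9.5e-05) and *Dcn* (−2.27, 0.0014) lower and *Thy1* (2.09, 4.8e-04) and *S100a4* (0.55, 0.011) higher. Whether these differences bear on the collagens was not tested.

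The knock-down cells carried more mRNA of several basement-membrane and network collagens and less of 2 chains known from cartilage and fibre surfaces, while the type I chains differed by at most 0.10 on the log2 scale. With TNF-α, 5 of the 44 chains were higher in knock-down than in wild-type cells (11.4%, against 3.36% of all tested probe sets) and 2 were lower (4.55%, against 2.6%). The 5 higher chains were *Col18a1*, *Col4a5*, *Col4a2*, *Col4a1* and *Col8a1*, by 1.39-fold to 2.09-fold, and the 2 lower ones were *Col2a1* and *Col12a1*, by 2.06-fold and 1.76-fold. Of the 9 network chains 4 were higher and none lower. These counts depend on the processing. When all deposited probe sets were tested, 3 chains were higher and 1 lower, with *Col4a2* (limma adjusted p = 0.089), *Col4a5* (0.094) and *Col12a1* (0.066) lost, and without any 1 array 2 to 3 were higher. With the replicate number as a block, a pairing clear for replicate 3 and less so for 1 and 2, 6 chains were higher and 4 lower. In that fit 4.94% of all tested probe sets were higher and 4.07% lower. The additions were *Col4a6* (limma adjusted p = 0.0081), *Col6a2* (0.0012) and *Col6a1* (0.0093). The arrays measure RNA of the whole culture, in which fewer cells of a kind and less RNA per cell cannot be told apart.

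**Figure D1:**
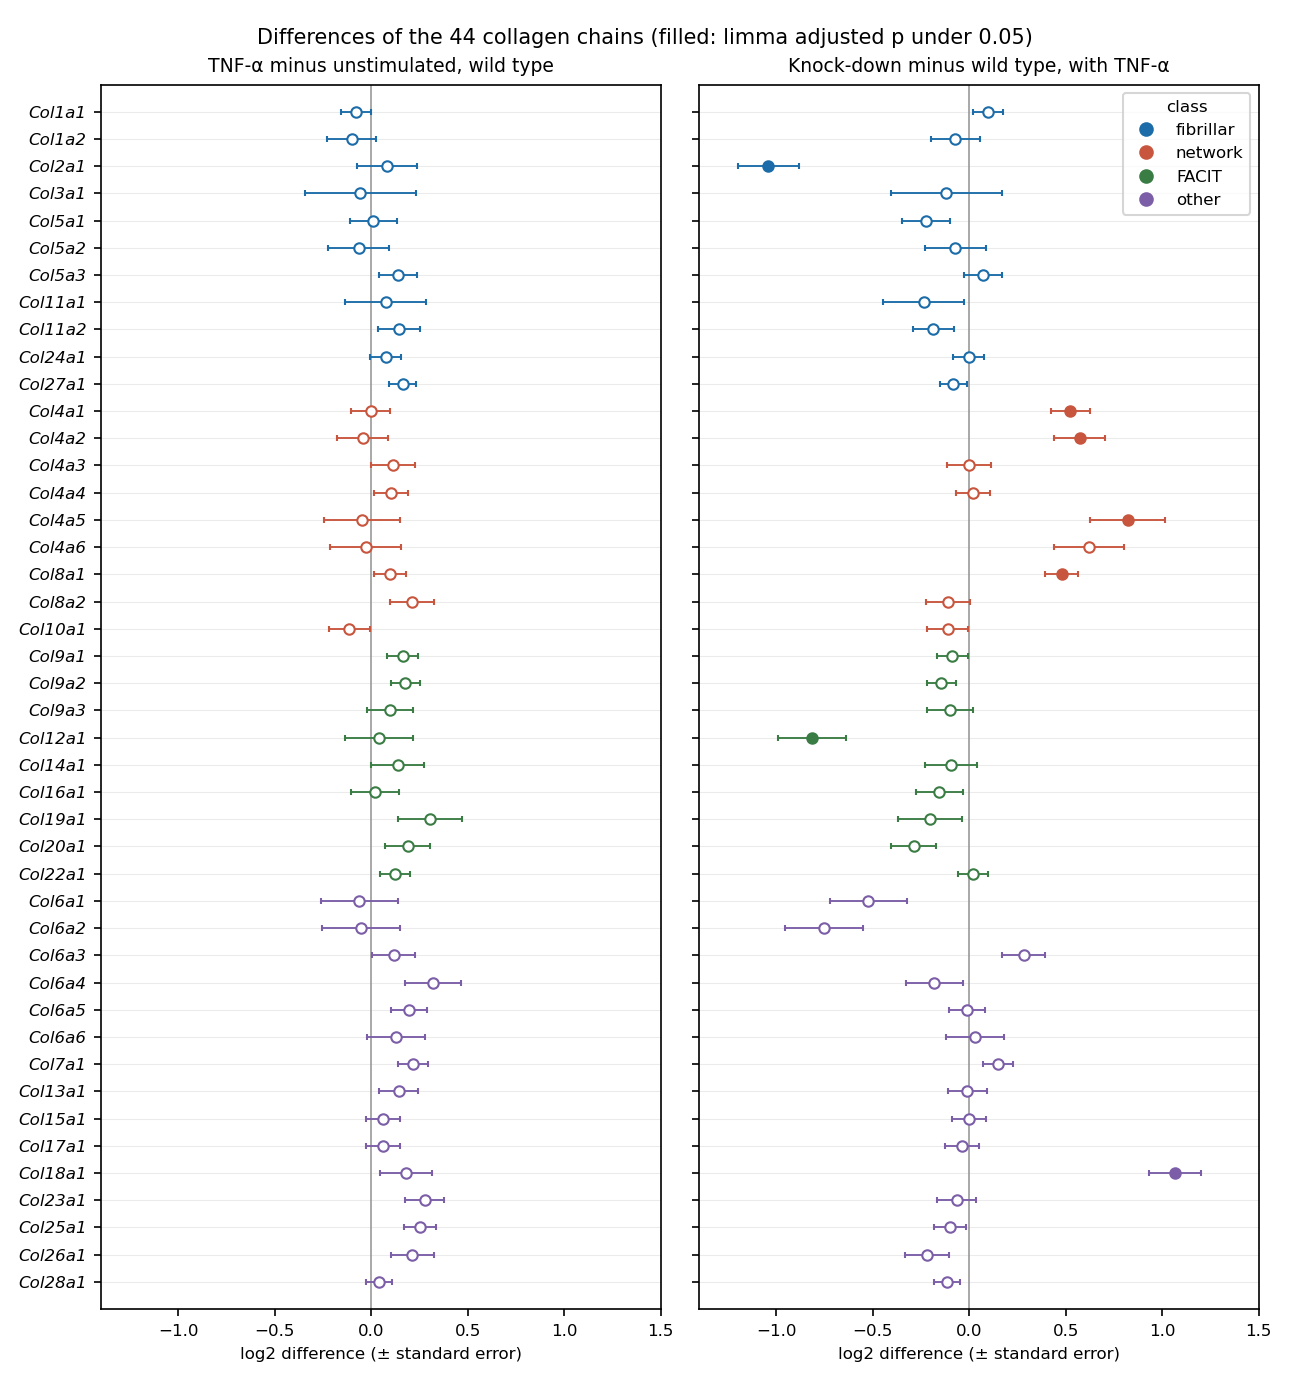
Log2 difference of each of the 44 collagen chains, with its standard error, in wild-type cells with TNF-α minus without (left) and in knock-down minus wild-type cells, both with TNF-α (right). Colours give the class and filled points have a limma adjusted p under 0.05, which 0 chains reach on the left and 7 on the right.

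Type IV chains lie in head-to-head gene pairs, so the starts of the chains that differed are shown here. They come from RefSeq on the mouse build GRCm38.p6, which held windows for 35 of the 44 chains, not among them *Col2a1* and *Col12a1*. *Col4a1* on the minus strand and *Col4a2* on the plus strand begin at chr8:11312805-11312826, where the 5′ ends of their transcripts overlap by 22 bases. *Col4a6* on the minus strand and *Col4a5* on the plus strand begin 1342 bases apart on chromosome X. The overlap is given on the plus strand, and for *Col18a1* (chr10:77166531-77166630, minus strand), *Col8a1* (chr16:57754738-57754837, minus strand), *Col4a5* (chrX:141475319-141475418, plus strand) and *Col4a6* (chrX:141474077-141474176, minus strand) the 100 bases before the start are printed 5′ to 3′. *Col6a1* (chr10:76726045-76726144, minus strand) is shown as a chain that was not higher and a neighbour of *Col18a1*, with 2 coding genes between them. Capitals mark GGGCGG on either strand, the GC box.
Col4a1/Col4a2 overlap: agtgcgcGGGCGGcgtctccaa
Col18a1: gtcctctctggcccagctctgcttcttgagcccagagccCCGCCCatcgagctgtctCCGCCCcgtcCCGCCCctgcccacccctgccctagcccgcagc
Col8a1: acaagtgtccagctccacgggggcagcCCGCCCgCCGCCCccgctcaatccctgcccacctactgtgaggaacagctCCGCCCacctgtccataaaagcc
Col4a5: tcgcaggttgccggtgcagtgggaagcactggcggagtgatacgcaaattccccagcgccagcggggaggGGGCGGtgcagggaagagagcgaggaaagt
Col4a6: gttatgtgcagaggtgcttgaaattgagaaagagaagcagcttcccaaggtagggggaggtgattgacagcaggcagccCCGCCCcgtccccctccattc
Col6a1: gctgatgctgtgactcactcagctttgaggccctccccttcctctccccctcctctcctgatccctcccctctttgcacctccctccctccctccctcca

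The stretches hold GGGCGG 3 times in *Col18a1* and *Col8a1* and once in *Col4a5*, *Col4a6* and the *Col4a1* and *Col4a2* overlap, and that of *Col6a1* has none. The chains called lower against wild-type cells with TNF-α, *Col2a1* and *Col12a1*, had no window. *Col6a2*, called lower against unstimulated cells and with the replicate block, had the box in both of its windows. *Col6a1*, lower with the block, had it nowhere in its window. Whether the box divides higher from lower chains was not tested. RefSeq lists 2 starts each for *Col18a1* and *Col6a2*, and *Col6a2* did not pass against wild-type cells with TNF-α without the block. The 100 bases before the other *Col18a1* start (chr10:77113706-77113805) hold none, while those of *Col6a2* hold 3 (chr10:76623405-76623504) and none (chr10:76623631-76623730). Over the whole windows of 300 bases (250 before the start and 50 after), GGGCGG stood on either strand in 23 of 38 collagen windows (60.53%) and in 35.66% of all 32851 windows. The collagen windows were also richer in G and C, with a median of 59.8% against 52.7%. TATAAA was in 13.16% of collagen windows against 13.62% of all, CCAAT in 34.21% against 37.41%, TGACTCA in 2.63% against 5.2%, and the NF-κB consensus in 4 windows (10.53%) against 4.51%. Each motif was searched on both strands and matches of different motifs were free to overlap. A match describes the letters of a window, and which start these cells use is not shown by the arrays.

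*Col4a1* and *Col4a2* encode the α1 and α2 chains that together form the common type IV molecule. *Col4a1* read 8.27, 8.39 and 8.05 without stimulus, 8.32, 8.27 and 8.11 in wild-type cells with TNF-α, and 8.84, 8.69 and 8.73 in knock-down cells. *Col4a2* read 8.05, 8.22 and 7.70, then 7.99, 8.09 and 7.76, and in knock-down cells 8.55, 8.56 and 8.44. For both chains every knock-down array lay above all 6 wild-type arrays. *Col4a1* was higher by 0.52 (SE 0.10, limma adjusted p = 0.017) and *Col4a2* by 0.57 (SE 0.13, limma adjusted p = 0.039). The difference between the 2 chains within an array moved by −0.05 between wild-type and knock-down cells (exact two-sided permutation p = 0.5), which is within the spread of the arrays. Leaving out 1 array at a time kept the direction of both. *Col4a1* then passed in 2 of 6 fits (differences of 0.46 to 0.57, limma adjusted p up to 0.067) and was lost without wild-type TNF replicate 2 or 3 or knock-down replicate 1 or 3, and *Col4a2* passed in 0 of 6 (0.48 to 0.64, up to 0.12).

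*Col4a5* and *Col4a6* encode the α5 and α6 chains, which assemble with other partners in a narrower range of basement membranes. *Col4a5* read 6.25, 6.42 and 6.75 without stimulus, 6.45, 6.13 and 6.69 with TNF-α, and 7.11, 7.02 and 7.59 in knock-down cells. The knock-down arrays did not overlap the others, and the difference from wild type was 0.82 (SE 0.19, limma adjusted p = 0.040), or 1.77-fold. Without 1 array at a time it stayed between 0.65 and 0.96 and passed in 1 of 6 fits, the one without wild-type TNF replicate 3. *Col4a6* read 5.78, 5.53 and 6.04, then 5.95, 5.42 and 5.89, and in knock-down cells 6.27, 6.21 and 6.65. Its difference of 0.62 (SE 0.18) did not pass without the block (limma adjusted p = 0.093), although its 3 knock-down arrays also lay above the 6 others. Within arrays, the difference of *Col4a5* over *Col4a6* grew by 0.20 without overlap between knock-down and wild-type arrays with TNF-α (exact two-sided permutation p = 0.1, the smallest possible). The remaining type IV chains, *Col4a3* and *Col4a4*, differed by −0.00 (95% interval −0.26 to 0.25) and 0.02 (−0.18 to 0.22). Both were dim, with group means of 4.58 to 4.69 for *Col4a3* and 4.76 to 4.88 for *Col4a4*, where the median of all tested probe sets was 5.02. A difference in them could therefore go unmeasured. Type IV members fell into chains at 0.52 or more and these dim chains, whose interval included 0.

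Type VIII collagen is a short-chain network former made by vascular and other mesenchymal cells. *Col8a1* read 7.75, 7.74 and 7.65 without stimulus, 7.69, 7.89 and 7.85 with TNF-α, and 8.17, 8.31 and 8.38 in knock-down cells. The knock-down arrays lay above the 6 others, the difference was 0.48 (SE 0.08, limma adjusted p = 0.011), and it passed in 6 of 6 fits that left out 1 array. *Col8a2*, which encodes the other type VIII chain, differed by −0.11 (95% interval −0.37 to 0.15). *Col10a1*, the chain of hypertrophic cartilage, lay between 3.92 and 4.41 on the 9 arrays and differed by −0.11 (−0.35 to 0.13).

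*Col18a1* encodes the type XVIII chain, whose carboxy-terminal fragment is endostatin. It read 5.77, 5.63 and 6.08 without stimulus, 5.93, 5.91 and 6.18 in wild-type cells with TNF-α, and 7.23, 7.08 and 6.91 in knock-down cells. The lowest knock-down array stood clear of the highest wild-type array, and the difference of 1.07 (SE 0.13, limma adjusted p = 0.0021) was a 2.09-fold rise that passed in 6 of 6 fits without 1 array. *Col15a1*, its closest relative in structure, was level, at 5.19, 5.27 and 5.11 in wild-type and 5.19, 5.18 and 5.19 in knock-down cells with TNF-α. The difference between *Col18a1* and *Col15a1* within an array grew by 1.07, and the 3 arrays of each group did not overlap (exact two-sided permutation p = 0.1, the smallest that 3 against 3 allows). This and the other comparisons of partner chains, 6 pairs in all, were chosen after the values had been seen, and *Col1a1* over *Col1a2* moved by 0.17 (exact two-sided permutation p = 0.2).

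**Figure D2:**
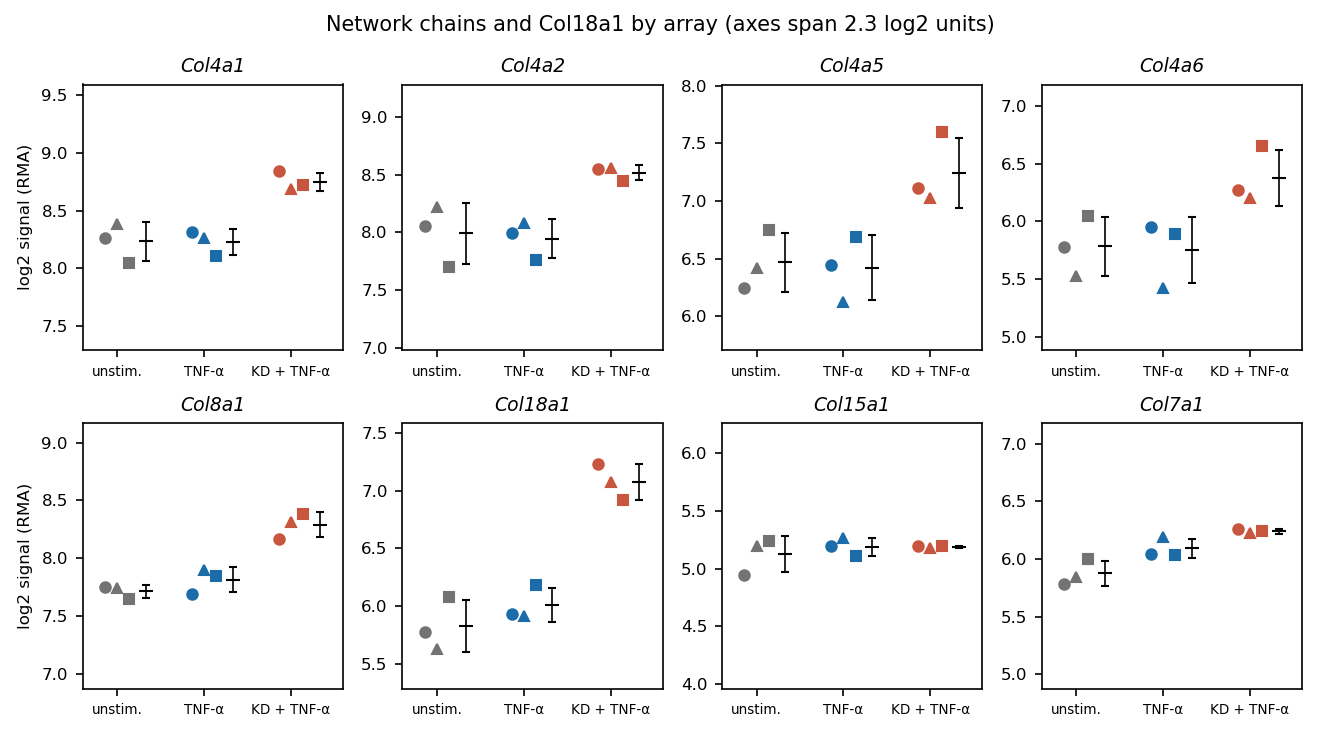
Log2 signal of 8 network and basement-membrane chains on each array (circle, triangle and square are replicates 1, 2 and 3; bars are the mean ± SD of 3 arrays). The knock-down arrays of *Col4a1*, *Col4a2*, *Col4a5*, *Col4a6*, *Col8a1* and *Col18a1* all sit above the wild-type arrays. Those of *Col15a1*, near the median of all tested probe sets, overlap them.

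Of the 11 fibrillar chains 1 was lower and none higher in knock-down cells. *Col2a1*, the chain of type II collagen and best known from cartilage, read 7.81, 7.42 and 7.38 without stimulus, 7.91, 7.57 and 7.38 with TNF-α, and 6.51, 6.74 and 6.48 in knock-down cells. All knock-down arrays were below all wild-type arrays, with a difference of −1.04 (SE 0.16, limma adjusted p = 0.0050) that passed in 6 of 6 fits without 1 array. Of 8 chondrocyte markers none passed in this comparison, where 3.36% of all tested probe sets were higher and 2.6% lower. Only 1 of the 8, *Sox9*, had a mean above the median of all tested probe sets, 5.02. A difference in the others could therefore go unmeasured. *Sox9*, the cartilage transcription factor, differed by −0.18 (limma adjusted p = 0.30), and *Acan*, the cartilage proteoglycan, by −0.56 (0.16), both without overlap of the arrays. Against unstimulated wild-type cells *Sox9* was called lower (−0.37, limma adjusted p = 0.021), the only 1 of the 8 called there. Of all tested probe sets 3.64% were higher and 4.62% lower in that comparison. The mean of that marker list was 4.39 to 4.50 in the wild-type and 4.23 to 4.40 in the knock-down arrays with TNF-α, and only *Sox9* exceeded 8. The part of any such cells in the *Col2a1* difference was not tested.

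The chains of type I collagen, the bulk product of fibroblasts, differed little. *Col1a1* read 12.49, 12.47 and 12.55 in wild-type and 12.70, 12.46 and 12.64 in knock-down cells with TNF-α, a difference of 0.10 (95% interval −0.08 to 0.28, limma adjusted p = 0.60). *Col1a2* differed by −0.07 (−0.36 to 0.21). *Col3a1*, which co-assembles into type I fibres, spread widely within each group, from 9.21 to 9.84 in knock-down and 9.33 to 10.19 in wild-type cells, and its interval ran from −0.77 to 0.53. *Col5a1* and *Col5a2*, chains that control fibre diameter, differed by −0.22 and −0.07. The other fibrillar chains, *Col5a3*, *Col11a1*, *Col11a2*, *Col24a1* and *Col27a1*, lay between −0.24 and 0.07 and none passed. The median of the fibrillar class was −0.08, against 0.48 for the network class, −0.15 for the FACIT class, −0.04 for the other chains and −0.02 for all tested probe sets. Without 1 array at a time these ran from −0.16 to −0.02 for fibrillar, 0.42 to 0.48 for network, −0.17 to −0.09 for FACIT and −0.09 to −0.004 for the other chains, whose median was 0.02 after centring.

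Among 9 FACIT chains 1 was lower. *Col12a1*, a chain on the surface of type I fibres in tendon and skin, read 8.78, 9.15 and 8.65 without stimulus, 8.84, 8.95 and 8.91 with TNF-α, and 8.38, 7.71 and 8.17 in knock-down cells. The knock-down arrays lay below the 6 others, and the difference was −0.82 (SE 0.17, limma adjusted p = 0.026). It ranged from −0.96 to −0.63 without 1 array and passed in 1 of 6 fits, the one without knock-down replicate 1. Its near relative *Col14a1* differed by −0.10 and lay between 3.85 and 4.49 on all arrays. The remaining 7 chains, *Col9a1*, *Col9a2*, *Col9a3*, *Col16a1*, *Col19a1*, *Col20a1* and *Col22a1*, ranged from −0.29 to 0.02, and that of *Col20a1*, the farthest from 0, had a limma adjusted p of 0.23.

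Type VI collagen is built from an α1, an α2 and a longer chain, most often α3. *Col6a1* read 9.87, 9.64 and 10.29 in wild-type cells with TNF-α and 9.35, 9.28 and 9.59 in knock-down cells. *Col6a2* read 8.77, 8.60 and 9.27 against 8.12, 7.91 and 8.34, and *Col6a3* 9.41, 9.32 and 9.41 against 9.91, 9.60 and 9.48. The α1 and α2 genes were below and the α3 gene above the wild-type arrays without overlap, yet without the block none passed: the differences were −0.52 (SE 0.20, limma adjusted p = 0.20), −0.76 (SE 0.20, 0.066) and 0.28 (SE 0.11, 0.22). *Col6a1* and *Col6a2* are neighbours on chromosome 10 and were both highest in replicate 3 of every group, and with the replicate block both fell past the threshold. Within arrays, the difference of *Col6a3* over *Col6a1* grew by 0.81 and that of *Col6a1* over *Col6a2* by 0.23, each with an exact two-sided permutation p of 0.1, the smallest possible. *Col6a4*, *Col6a5* and *Col6a6*, alternatives to α3, differed by −0.18, −0.01 and 0.03.

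The other 7 chains were *Col7a1* of anchoring fibrils, the transmembrane chains *Col13a1*, *Col17a1*, *Col23a1* and *Col25a1*, and *Col26a1* and *Col28a1*. Between knock-down and wild-type cells with TNF-α they ranged from −0.22 for *Col26a1* to 0.15 for *Col7a1*, and none passed. Over all 44 chains, every knock-down array lay above every wild-type array with TNF-α for 9 chains and below for 6, where 10.9% and 10% of all tested probe sets did so.

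**Figure D3:**
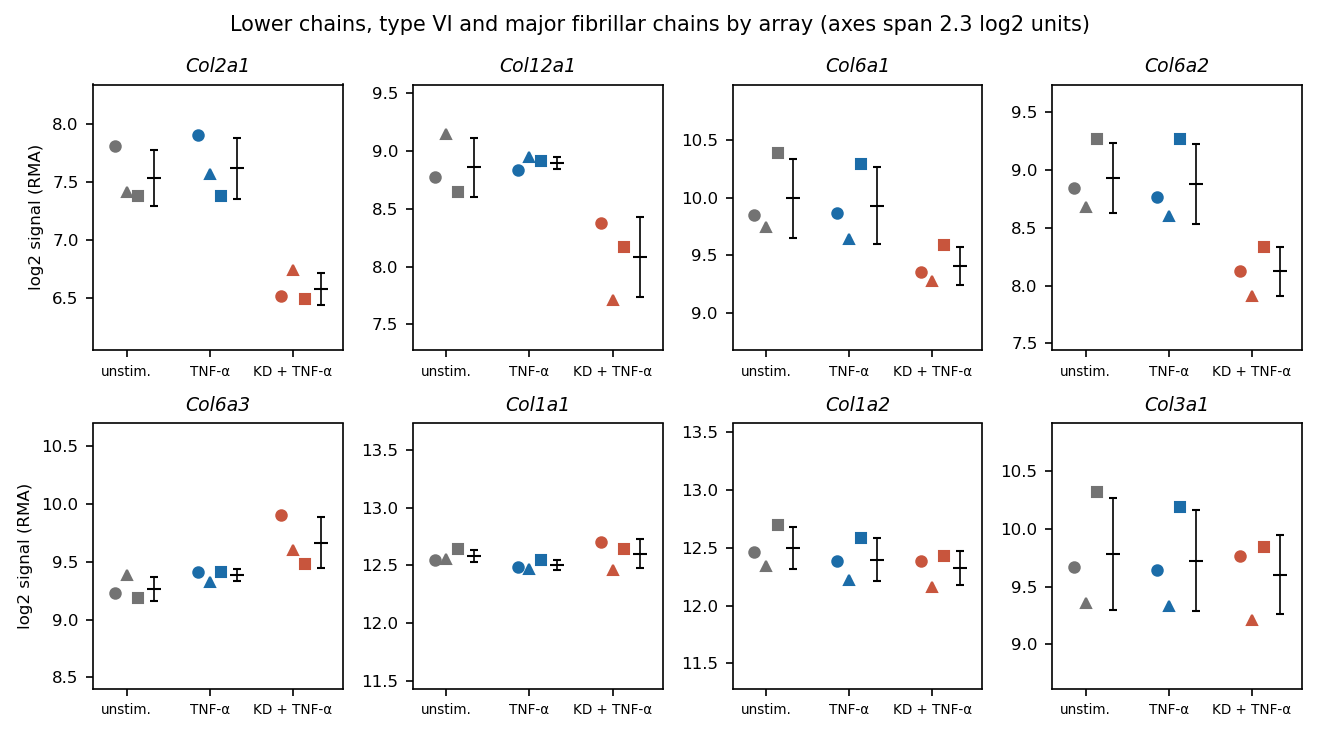
Log2 signal of *Col2a1*, *Col12a1*, the 3 main type VI chains and the major fibrillar chains on each array (circle, triangle and square are replicates 1, 2 and 3; bars are the mean ± SD of 3 arrays). *Col2a1*, *Col12a1*, *Col6a1* and *Col6a2* are lower in knock-down cells without overlap, while *Col1a1*, *Col1a2* and *Col3a1* overlap.

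The response of wild-type cells to 1 h of TNF-α left the collagens without a detected change. Of the 44 chains 0 were higher and 0 lower by limma, where 0.111% and 0.00427% of all tested probe sets were called, and the smallest adjusted p was 0.63. At an unadjusted p under 0.05 there were 5 chains higher and 0 lower, against 3.52% and 3.58% of all. The arrays of 5 chains did not overlap in the higher direction (*Col9a2*, *Col7a1*, *Col23a1*, *Col25a1* and *Col26a1*), where 4.01% of all tested probe sets did so, and 0 in the lower direction, where 6.18% did. The median difference was 0.10 for the chains and −0.02 for all tested probe sets. With each array centred on its own median these were 0.04 and −0.07, and 29 of the 44 chains in place of 33 lay above 0.

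Full values are given for the 4 chains farthest from 0. *Col6a4* read 4.99, 4.39 and 4.70 without and 4.80, 5.16 and 5.08 with TNF-α, a difference of 0.32 (SE 0.15, limma adjusted p = 0.70). *Col19a1*, a FACIT chain, read 4.14, 4.04 and 4.64 against 4.47, 4.80 and 4.47, a difference of 0.31 (SE 0.17, 0.72). In both the groups overlapped. *Col23a1* read 5.50, 5.63 and 5.66 against 5.72, 5.95 and 5.95 (0.28, SE 0.10, limma adjusted p = 0.67), and *Col25a1* 4.77, 4.91 and 5.03 against 5.16, 5.21 and 5.10 (0.25, SE 0.08, 0.63). The chains that differed in knock-down cells moved less: *Col4a1* by −0.00 (95% interval −0.23 to 0.22), *Col4a2* by −0.05, *Col4a5* by −0.05, *Col8a1* by 0.10, *Col2a1* by 0.08 and *Col12a1* by 0.04, and *Col18a1* by 0.18 (−0.12 to 0.48). By class, the medians were 0.07 for fibrillar, −0.00 for network, 0.14 for FACIT and 0.14 for the other chains. Without 1 array the first ran from −0.10 to 0.11 and that of network chains from −0.05 to 0.09, so that both turned sign, and the others stayed above 0.

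Set against unstimulated wild-type cells, the knock-down cells with TNF-α had 6 chains higher (13.6%, against 3.64% of all tested probe sets) and 3 lower (6.82%, against 4.62%). This comparison shares its knock-down arrays with the one above and is no separate evidence. *Col18a1* was higher by 1.25 (limma adjusted p = 8.0e-04), *Col8a1* by 0.58 (0.0035), *Col4a1* by 0.52 (0.014), *Col4a2* by 0.53 (0.044) and *Col4a5* by 0.77 (0.041), and *Col2a1* was lower by a difference of −0.96 (0.0059) and *Col12a1* by one of −0.78 (0.026). *Col7a1* was called here alone, at 5.87 ± 0.11 (SD, n = 3) without stimulus and 6.26, 6.22 and 6.24 in knock-down cells without overlap (0.37, SE 0.08, limma adjusted p = 0.021). Wild-type cells with TNF-α lay between, at 6.05, 6.19 and 6.04. *Col6a2*, at 8.84, 8.68 and 9.27 without stimulus, was lower by a difference of −0.81 (SE 0.20, limma adjusted p = 0.041). Without 1 array at a time *Col18a1*, *Col8a1* and *Col2a1* passed in 6 of 6 fits, *Col4a1* in 5, *Col12a1* in 2, and *Col4a2*, *Col4a5*, *Col6a2* and *Col7a1* in 1 each. The class medians were −0.14 for fibrillar, 0.52 for network, 0.03 for FACIT and 0.14 for the other chains. Without 1 array they ran from −0.23 to 0.04, 0.38 to 0.53, −0.10 to 0.13 and 0.02 to 0.21, so that the fibrillar and FACIT medians turned sign.

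Several genes that serve the modification and folding of the chains in the endoplasmic reticulum were lower in knock-down cells. Of 17 measured, 5 were lower and 1 higher than in wild-type cells with TNF-α (2.6% and 3.36% of all tested probe sets were), and their median difference was −0.25 against −0.02 for all tested probe sets. The prolyl 3-hydroxylase *P3h2* read 7.77 ± 0.20 (SD, n = 3) in wild-type and 6.58, 6.85 and 7.07 in knock-down cells (−0.94, SE 0.13, limma adjusted p = 0.0039). The related *P3h3* read 7.13, 6.98 and 7.35 against 6.30, 6.12 and 6.37 (−0.89, SE 0.12, 0.0031). Neither overlapped between groups. Also lower were *P3h4*, a family member that partners lysyl hydroxylation (−0.46, 0.014), *Crtap*, the partner of the type I collagen 3-hydroxylase (−0.41, 0.0067), and the lysyl hydroxylase *Plod3* (−0.35, 0.013). The lysyl hydroxylase *Plod2*, which acts on the ends of the chains and so sets the type of cross-link, was higher, at 8.73 to 9.08 against 8.31, 8.34 and 8.38 (0.59, SE 0.10, limma adjusted p = 0.0074). The chaperone *Serpinh1* (HSP47) differed by −0.21 (limma adjusted p = 0.37).

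Of 14 genes of export, cleavage and cross-linking, 3 were higher and 1 lower, where 3.36% and 2.6% of all tested probe sets were. The cross-linking enzyme *Lox* read 10.58, 10.58 and 11.18 in wild-type and 9.81, 9.55 and 10.10 in knock-down cells with TNF-α (−0.96, SE 0.21, limma adjusted p = 0.026), while its relative *Loxl4* read 7.46, 7.64 and 7.64 against 8.16, 8.31 and 8.20 (0.64, SE 0.10, 0.0067). *Pcolce2*, which enhances removal of the carboxy-terminal propeptide, was higher by 1.00 (SE 0.18, limma adjusted p = 0.011) and the amino-terminal propeptidase *Adamts14* by 0.43 (SE 0.09, 0.025). Of 9 collagen receptors 0 passed, the widest being the integrin chain *Itga11* (−0.71, limma adjusted p = 0.40). Among 9 collagen-degrading proteases the gelatinase *Mmp9* was lower, at 4.90, 4.71 and 5.13 against 4.50, 3.93 and 4.16 (−0.72, SE 0.15, limma adjusted p = 0.026). TNF-α alone gave 0 calls in any of the 4 lists, where only 0.111% of all tested probe sets were higher and 0.00427% lower. Against unstimulated wild-type cells the knock-down cells had 1 modification gene higher and 6 lower, 2 genes of the export list higher and 1 lower, and 0 receptors or proteases called, where 3.64% of all tested probe sets were higher and 4.62% lower.

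**Figure D4:**
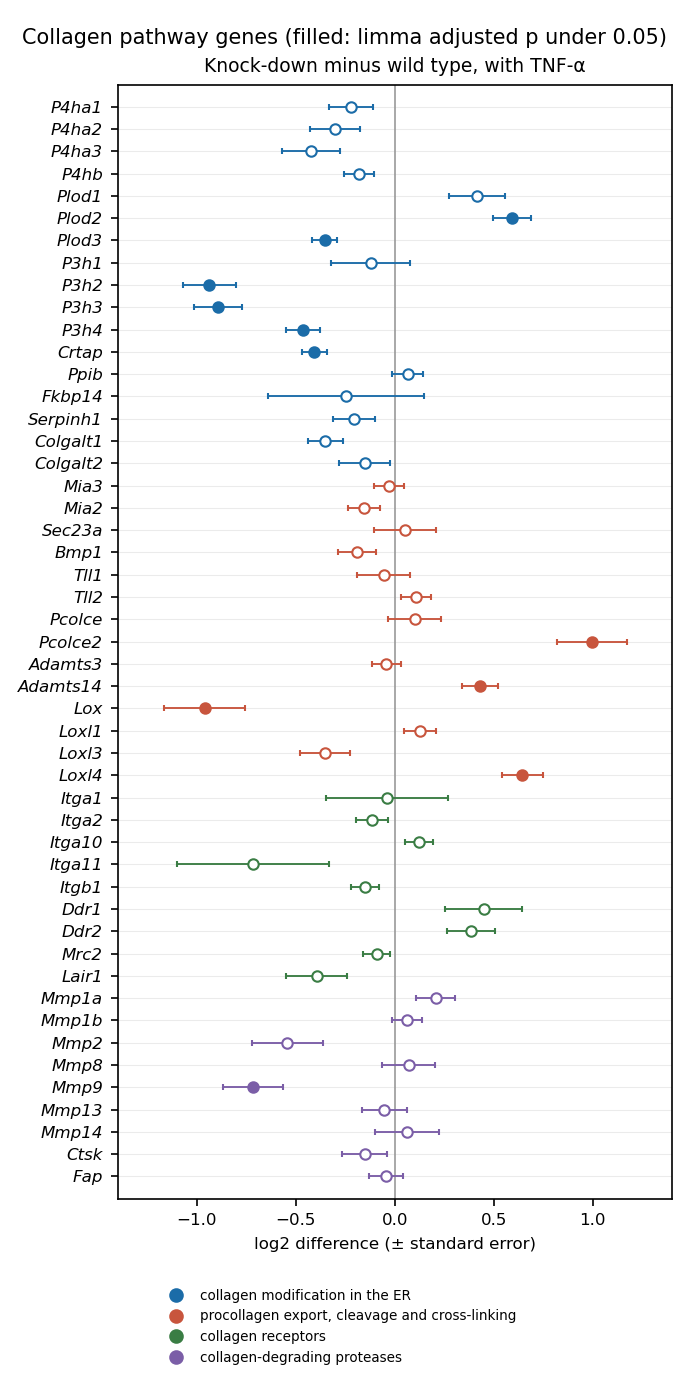
Log2 difference, with its standard error, of the measured genes of 4 collagen pathway lists in knock-down minus wild-type cells, both with TNF-α. Colours give the list and filled points have a limma adjusted p under 0.05, which 6 modification genes, 4 genes of the export list, 0 receptors and 1 protease reach.

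Markers of other cell types were mostly dim. None of 6 endothelial, 6 epithelial or 6 macrophage and leukocyte markers passed between knock-down and wild-type cells with TNF-α. Of all tested probe sets 3.36% were higher and 2.6% lower there. The means of these lists lay between 3.15 and 4.37 on all arrays, below the median of all tested probe sets, 5.02. A difference in these markers could therefore go unmeasured. Of 5 skeletal muscle markers *Acta1* was higher (0.75, limma adjusted p = 0.022).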

How the data were processed

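RNA of 9 samples was hybridised to Affymetrix Mouse Gene 1.0 ST arrays. The deposited values are log2 signals that the authors made with RMA, whose version, probe annotation and genome build are not given in the sources used here, with 1 value for each of 35557 probe sets and array. Of these, 21789 carry 1 gene symbol in the platform annotation, 1621 several and 12147 none, and the 23410 with a symbol were tested. Arrays were grouped by the labels, which call the replicates biological, and the methods call the samples independent without saying how cultures were kept apart, so p-values measure the spread between these samples. The number of arrays limits the precision.

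In R 4.3.3, limma 3.58.1 (lmFit, eBayes) was fitted to the 3 groups without a block, with Benjamini-Hochberg adjustment and a threshold of 0.05, as the study's methods name no model. No filter on low signal was used. The fit was tested on simulated data. Replicate numbers come from the labels. Deviations of same-numbered arrays correlated at 0.110 to 0.403 for TNF-α and 0.147 to 0.465 for the knock-down, and the numbers were taken to pair these arrays. Only replicate 3 stood apart in both, with negative correlations to every other number. Knock-down array 1 correlated at 0.147 and 0.160 with wild-type TNF-α arrays 1 and 2, and knock-down array 2 at 0.052 and 0.274. Wild-type TNF-α array 1 correlated at 0.298 and 0.249 with unstimulated arrays 1 and 2, and wild-type TNF-α array 2 at 0.099 and 0.110. For knock-down against unstimulated, same-numbered arrays correlated at only 0.002 to 0.221, and replicate 3 again had negative correlations to every other number. Alternatives were the replicate block, centring, all probe sets, a filter on dim probe sets, 6 arrays only, a trended and robust prior, the mean of a gene's probe sets, the methods' filter (p under 0.1, taken here as unadjusted, and SD under 0.5 of the mean difference) and leaving out each array.

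The chains, classes, 4 pathway lists and 6 marker lists were chosen with earlier results of these data known. Array values are given for chains that passed in any comparison, or the 4 farthest from 0 where fewer passed, and pathway genes are named where they passed, with a few others added after their values were seen. *Fkbp10* and *Gp6* had no probe set of their own and *Adamts2* and *Loxl2* only shared ones.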

Additional observations from a re-analysis of the deposited data

How the results depend on the processing

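*Col18a1*, *Col8a1* and *Col2a1* passed between knock-down and wild-type cells under all 8 other settings and in 6 of 6 fits without 1 array. The 5 chains called higher became 3 and the 2 lower became 1 when all deposited probe sets were tested. The 2 lower became 4 with the replicate block and 1 with only the 6 arrays compared (*Col12a1* lost, limma adjusted p = 0.052). With the methods' filter, used here without adjustment, they became 4, where 16.4% of all probe sets passed in either direction. Leaving out 1 array, whichever of the 6 it was, gave 2 to 3 higher and 1 to 2 lower, with fewer samples in the fit, and only without knock-down replicate 1 were 2 still lower. Against unstimulated cells, the 3 lower became 1 with all deposited probe sets. Leaving out 1 array there gave 2 to 6 higher and 1 to 2 lower. The higher chains were 3 without unstimulated replicate 1 or knock-down replicate 2, and 2 without knock-down replicate 1. The lower chain was 1 without unstimulated replicate 1 or knock-down replicate 2 or 3. The replicate block gave 7 higher and 4 lower (against 5.18% and 6.87% of all). Same-numbered arrays correlated at 0.002 to 0.221 in that comparison. For TNF-α the block kept 0 and 0, and the methods' filter gave 8 higher and 0 lower, where 7.46% of all passed in either direction. The cause of the other changes was not tested.

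TNF-α differences near 0 changed sign without 1 array, with ranges of −0.06 to 0.22 for *Col2a1*, −0.10 to 0.07 for *Col4a1*, −0.19 to 0.07 for *Col4a2*, −0.18 to 0.10 for *Col4a5*, −0.06 to 0.19 for *Col12a1* and −0.25 to 0.12 for *Col6a2*. The values of opposite sign were −0.062 for *Col2a1*, 0.013, 0.058 and 0.073 for *Col4a1*, 0.047 and 0.068 for *Col4a2*, 0.090 and 0.10 for *Col4a5*, −0.064 for *Col12a1*, and 0.0049, 0.089 and 0.12 for *Col6a2*, and centring gave −0.015 for *Col12a1*. No detection calls were used here, so a chain near the background could differ without a measured difference.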

Other observations

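In 8 of the 44 chains (18.2%, where 2340 of all 23410 tested probe sets did the same) replicate 3 was the highest array in each of the 3 groups, while replicate 1 was so in 0 and replicate 2 in 1. These were *Col1a2*, *Col3a1*, *Col5a2*, *Col11a1*, *Col4a5*, *Col16a1*, *Col6a1* and *Col6a2*. *Col3a1* had 10.32 without stimulus, 10.19 with TNF-α and 9.84 in knock-down cells in replicate 3, against 9.36, 9.33 and 9.21 in replicate 2.

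In 13 chains (29.5%, against 36.6% of all tested probe sets) 3 or more of the 9 arrays held exactly the same value. *Col28a1* did so in 6 arrays, *Col17a1* and *Col27a1* in 5, and *Col15a1* and *Col19a1* in 4. None of the 9 chains called in any comparison was among them.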
